A study of Mus musculus with 16 samples.

Results

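Genes that move, store or sense cellular iron, 9 in number, were followed across all 16 libraries of an RNA sequencing study of mouse hepatocytes. They were taken by gene name from the deposited table of 54532 genes. They comprise the ferritin subunits Fth1 and Ftl1, the transporters Tfrc, Slc11a2 and Slc40a1, the hormone gene Hamp, the iron regulatory proteins Aco1 and Ireb2, and the ferritin receptor Ncoa4. Of the 9 genes, 8 averaged 1 FPKM (a fragment count scaled to gene length in kilobases and to depth in M fragments) or more and were tested, along with 11395 genes in all, and Hamp was not. The lowest group mean of any tested member was 6.24 FPKM, so none was kept only through a group in which it was high.

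Of the 5 groups, 4 were hepatocytes grown with cancer cells. In the first, the cancer cells were Phgdh KO and a CXCR2 inhibitor was present, CXCR2 being a chemokine receptor known from neutrophils (KO co-culture with inhibitor, n = 4). In the others the cells were Phgdh WT with the inhibitor (n = 3), Phgdh KO without it (n = 3) or Phgdh WT without it (n = 3). The last group was hepatocytes alone (n = 3). The Phgdh product starts the route by which cells make serine from glucose, and the genotype is that of the cancer cells, not of the hepatocytes. The labels call the hepatocytes a cell line and give no strain, age, dose, time, vehicle, batch or format of the culture. No group had the inhibitor without cancer cells. The series' design text names HY19636 cancer cells as the sequenced material, which conflicts with the labels; the labels were followed. The labels do not call the replicates separate cultures, so a p-value reflects only how far these libraries scatter. A mean in FPKM is given ± SD, and a log2 fold change ± SE.

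Cells take up transferrin-bound iron through the receptor encoded by Tfrc, release it from endosomes through the transporter encoded by Slc11a2, store it in ferritin shells and export it through ferroportin, encoded by Slc40a1. The iron regulatory proteins bind iron-responsive elements, short RNA hairpins: when iron is scarce, binding in a 5′ UTR blocks translation and binding in the 3′ UTR of the receptor mRNA protects it from decay. Hepatocytes are a main iron store of the body and the source of hepcidin, the hormone that makes cells degrade ferroportin.

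Of the 9 genes, 4 carry a sequence of the hairpin form in a UTR, and these are shown because the 4 have this form in common. The form searched was C, 5 bases, the loop CAGTG followed by A, C or T, and 5 bases that pair with the first 5 (G with U allowed), on the transcript strand only. A hairpin with an unpaired base within this stem would be missed, so a gene without a match may still carry one. It was found in a UTR of 123 of 21901 protein-coding genes (0.562%) with GENCODE M21 transcripts on GRCm38. Each stretch of 27 bases is written 5′ to 3′ on the strand of the mRNA, as DNA, with the loop in capitals. The Fth1 stretch (Fth1-201, 5′ UTR, chr19:9982733-9982759, plus strand) and the Ftl1 stretch (Ftl1-201, 5′ UTR, chr7:45459780-45459806, minus strand) are identical at 25 of 27 bases. The Slc40a1 stretch (Slc40a1-201, 5′ UTR, chr1:45925466-45925492, minus strand) matches Fth1 at 13. The 4 stretches of Tfrc lie in the 3′ UTR of Tfrc-201 on the plus strand, at chr16:32631220-32631246, chr16:32631599-32631625, chr16:32631664-32631690 and chr16:32631711-32631737, and the first of them matches Fth1 at 10 bases.
Fth1: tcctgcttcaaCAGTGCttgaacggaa
Ftl1: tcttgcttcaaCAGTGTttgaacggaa
Slc40a1: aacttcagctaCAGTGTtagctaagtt
Tfrc 3′ UTR site 1: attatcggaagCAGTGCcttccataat
Tfrc 3′ UTR site 2: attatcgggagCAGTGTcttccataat
Tfrc 3′ UTR site 3: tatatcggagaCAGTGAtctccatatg
Tfrc 3′ UTR site 4: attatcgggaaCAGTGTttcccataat
A match is a description of letters and not evidence of a bound site, and the measurements here are of RNA level only, not of translation.

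Recovered fragments per library ranged between 15.002 and 21.3 M, and 1.86 to 4.57% of them came from mitochondrial genes. That share was 1.86 to 2.11% in all libraries with inhibitor and 3.25 to 4.57% in all others. FPKM summed over all genes to 301949 to 315632 with inhibitor and to 334218 to 349599 without it. In a principal component analysis of all tested genes, components 1 and 2 held 59.1 and 27.3% of the variance. On component 1, libraries with inhibitor lay at -38.1 to -34.8, co-cultures without it at 36.4 to 38.2 and hepatocytes alone at 11.4 to 11.6. On component 2, hepatocytes alone lay at -48.0 to -46.6 and all co-cultures at 6.13 to 16.5. WT co-culture replicate 1 stood apart on component 3 (2.99% of the variance), at -20.1 against -7.71 to 10.2 in the other 15 libraries. Values of the members that rest on that library are also given without it where they moved by over 1.5 times or changed their call. The same was done for the co-culture and inhibitor comparisons of WT. Component 3 also split libraries within other groups. In KO co-culture with inhibitor, replicate 4 was at -7.45 and the others at 4.86 to 6.02. In WT co-culture with inhibitor, replicates 1 and 3 were at -7.35 and -7.71 and replicate 2 at 6.33. In KO co-culture, replicate 3 was at -5.71 and the others at 2.64 and 10.2. The part of this split in the member values was not tested. Phgdh itself was at 146 to 157 FPKM in KO co-culture with inhibitor, 155 to 160.2 in WT co-culture with inhibitor, 193 to 201 in KO co-culture, 195 to 206 in WT co-culture and 203 to 207 in hepatocytes alone. Hepatocyte markers summed (10 genes, led by Alb) to 1020 to 1075 FPKM, 785 to 798, 150.3 to 154, 126 to 131 and 252 to 259 in the same order of groups. Not every marker followed the order of the sum. In that order of groups, Alb averaged 461, 335, 27.8, 24.3 and 57.1 FPKM. Apob averaged 44.5, 42.1, 24.8, 21.7 and 47.8 FPKM, and Hnf4a 73.8, 69.1, 41.0, 49.8 and 46.6 FPKM. Among the hepatocyte markers Asgr1 stayed under 1 FPKM in every library, and Cps1 averaged 0.21 FPKM in hepatocytes alone. Pancreatic cancer epithelium markers (10 genes, led by Msln and Krt19) summed to 582 to 604, 617 to 661, 213 to 227, 222 to 247 and 311 to 325 FPKM. Of these 10, 5 stayed under 1 FPKM in every library (Epcam, Muc1, Tff1, Tff2 and Cldn18), so the sum is nearly all Msln and Krt19. Of 12 Kupffer cell and macrophage markers, 9 were at 0 in all libraries (Clec4f, Timd4 and Vsig4 among them) and 11 stayed under 1 FPKM. The sum of that list, nearly all Cd68, was 3.93 to 4.67, 4.29 to 5.69, 0.901 to 1.23, 1.18 to 1.51 and 0.412 to 1.33 FPKM. All 7 endothelial, 8 stellate and 10 erythroid markers stayed under 1 FPKM. The part of these differences in the results on iron genes was not tested.

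Of the 9 genes, that of the iron exporter differed most between groups. Slc40a1 (ENSMUSG00000025993, chr1:45908068-45926523, minus strand) was at 7.04, 6.58, 7.31 and 7.74 FPKM in KO co-culture with inhibitor and at 7.30, 6.65 and 6.81 FPKM in WT co-culture with inhibitor. It was at 20.9, 19.98 and 19.9 FPKM in KO co-culture, at 20.4, 17.3 and 19.2 FPKM in WT co-culture, and at 34.5, 35.3 and 35.6 FPKM in hepatocytes alone. The libraries thus formed 3 tiers with no overlap: both groups with inhibitor lowest, both co-cultures without it between, and hepatocytes alone highest, while KO and WT overlapped within the lower tiers. With the inhibitor the log2 fold change was -1.38 ± 0.06 in KO co-culture (limma, adjusted p = 2.04e-11) and -1.33 ± 0.06 in WT co-culture (7.64e-11). Against hepatocytes alone it was -0.77 ± 0.06 in KO co-culture (4.51e-08) and -0.86 ± 0.06 in WT co-culture (1.20e-08). With the inhibitor present, the difference from hepatocytes alone was -2.15 ± 0.06 for KO (2.58e-13) and -2.19 ± 0.06 for WT (5.37e-13). Without WT co-culture replicate 1 the Slc40a1 values were -1.28 (inhibitor in WT) and -0.91 (WT co-culture against hepatocytes alone). In bulk RNA, fewer cells of a type and less RNA per cell cannot be told apart.

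**Figure D1:**
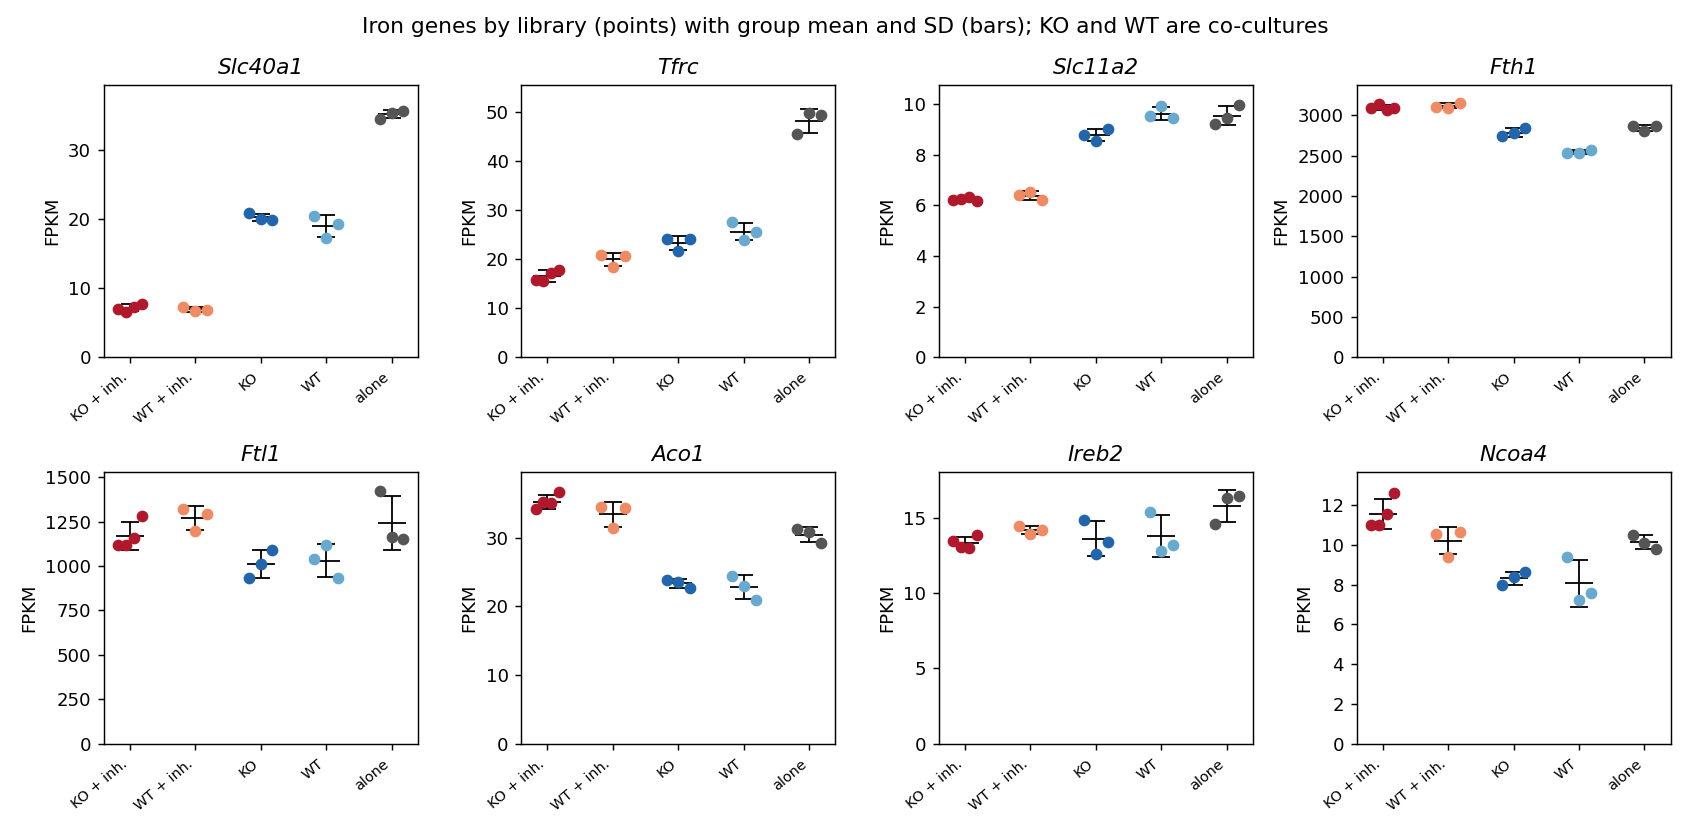
FPKM of the 8 tested iron genes (vertical axes, starting at 0) by group, with 1 point per library and bars for the group mean and SD; KO and WT are the co-cultures and "inh." is the CXCR2 inhibitor. Slc40a1 lies between 6.58 and 7.74 FPKM in the 7 libraries with inhibitor, between 17.3 and 20.9 in the 6 co-culture libraries without it and between 34.5 and 35.6 in hepatocytes alone.

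The gene of the transferrin receptor followed a similar order with smaller inhibitor steps. Tfrc (ENSMUSG00000022797, chr16:32608920-32632794, plus strand) was at 15.7, 15.4, 17.2 and 17.9 FPKM in KO co-culture with inhibitor and at 20.8, 18.4 and 20.5 FPKM in WT co-culture with inhibitor. It was at 24.0, 21.5 and 24.1 FPKM in KO co-culture, at 27.4, 23.9 and 25.4 FPKM in WT co-culture, and at 45.4, 49.7 and 49.4 FPKM in hepatocytes alone. Every co-culture library lay below every library of hepatocytes alone, all KO libraries with inhibitor lay below all WT libraries with it, and KO and WT overlapped without it. Co-culture lowered Tfrc by a log2 fold change of -1.02 ± 0.07 with KO cells (limma, adjusted p = 9.85e-09) and -0.89 ± 0.07 with WT cells (4.84e-08). The inhibitor lowered it further, by -0.47 ± 0.07 in KO co-culture (1.83e-05) and -0.35 ± 0.07 in WT co-culture (5.32e-04). Both groups with inhibitor stayed below hepatocytes alone, by -1.49 ± 0.07 for KO (5.88e-11) and -1.23 ± 0.07 for WT (1.18e-09). Without WT co-culture replicate 1 the Tfrc values were -0.94 against hepatocytes alone and -0.30 for the inhibitor in WT co-culture, with adjusted p of 1.08e-07 and 0.00295.

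Slc11a2, whose product DMT1 carries ferrous iron out of endosomes, differed chiefly between libraries with and without the inhibitor. Slc11a2 (ENSMUSG00000023030, chr15:100387898-100425072, minus strand) was at 6.23, 6.25, 6.31 and 6.16 FPKM in KO co-culture with inhibitor and at 6.43, 6.52 and 6.20 FPKM in WT co-culture with inhibitor. It was at 8.76, 8.53 and 9.03 FPKM in KO co-culture, at 9.52, 9.93 and 9.43 FPKM in WT co-culture, and at 9.22, 9.46 and 9.96 FPKM in hepatocytes alone. All 7 libraries with inhibitor lay below the other 9. Among those 9, KO co-culture lay lowest, and WT co-culture overlapped hepatocytes alone. The inhibitor lowered it by a log2 fold change of -0.43 ± 0.04 in KO co-culture (limma, adjusted p = 7.37e-08) and -0.53 ± 0.04 in WT co-culture (1.98e-08). Groups with inhibitor were lower than hepatocytes alone by -0.54 ± 0.04 for KO (6.27e-09) and -0.51 ± 0.04 for WT (2.82e-08). WT co-culture and hepatocytes alone differed by 0.01 ± 0.04 (0.813), with a 95% interval of -0.07 to 0.10. Leaving out WT co-culture replicate 1 made that Slc11a2 difference 0.02 and the inhibitor value in WT co-culture -0.53. KO co-culture was lower than hepatocytes alone by -0.11 ± 0.04 (0.0248), a call that ended without KO co-culture replicate 1 (0.0557) or replicate 2 (0.0920) and without hepatocytes alone replicate 3 (0.116). It ended too with fragments and voom weights (0.119), quantile normalization (0.137), rescaling without the most abundant genes (0.224) and a fit to the 2 groups only (0.0885).

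The ferritin genes were among the most abundant transcripts of these libraries. By mean FPKM over all libraries, Fth1 ranked 6 of 54532 genes and Ftl1 ranked 23, and their changes were small on the log2 scale. Fth1, the heavy chain that oxidises iron (ENSMUSG00000024661, chr19:9982703-9985092, plus strand), was at 3097, 3136, 3063 and 3089 FPKM in KO co-culture with inhibitor and at 3102, 3097 and 3155 FPKM in WT co-culture with inhibitor. It was at 2741, 2780.4 and 2841 FPKM in KO co-culture, at 2535, 2529 and 2575 FPKM in WT co-culture, and at 2864, 2800.01 and 2865 FPKM in hepatocytes alone. Libraries with inhibitor were the highest and those of WT co-culture the lowest, with no overlap, and KO co-culture overlapped hepatocytes alone. The inhibitor raised Fth1 by a log2 fold change of 0.15 ± 0.03 in KO co-culture (limma, adjusted p = 4.80e-04) and 0.29 ± 0.03 in WT co-culture (1.84e-06). Groups with inhibitor were above hepatocytes alone by 0.12 ± 0.03 for KO (0.00241) and 0.13 ± 0.03 for WT (0.00235). WT co-culture was below hepatocytes alone by -0.16 ± 0.03 (6.82e-04), and KO co-culture differed from it by -0.03 ± 0.03 (0.468), with a 95% interval of -0.10 to 0.04.

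Ftl1, the light chain that helps the iron mineral form (ENSMUSG00000050708, chr7:45457944-45459884, minus strand), was at 1120.4, 1118, 1158 and 1279.9 FPKM in KO co-culture with inhibitor and at 1322, 1196 and 1294 FPKM in WT co-culture with inhibitor. It was at 931, 1014 and 1089.7 FPKM in KO co-culture, at 1039.7, 1119.7 and 931 FPKM in WT co-culture, and at 1419, 1162 and 1149.9 FPKM in hepatocytes alone. KO libraries with inhibitor lay above all KO libraries without it, and WT libraries with inhibitor above all WT libraries without it, but hepatocytes alone spanned much of the range through replicate 1. The inhibitor raised Ftl1 by a log2 fold change of 0.21 ± 0.08 in KO co-culture (limma, adjusted p = 0.0403) and 0.30 ± 0.09 in WT co-culture (0.00850). KO and WT co-culture were below hepatocytes alone by -0.29 ± 0.09 (0.0117) and -0.27 ± 0.09 (0.0189). With the inhibitor the difference from hepatocytes alone was -0.08 ± 0.08 for KO (0.390) and 0.04 ± 0.09 for WT (0.740).

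Several of these ferritin calls depended on 1 library, on the scaling or on the genes fitted. Without WT co-culture replicate 1, the inhibitor values in WT co-culture were 0.29 for Fth1 and 0.31 for Ftl1, and those of WT co-culture against hepatocytes alone were -0.16 for Fth1 and -0.28 for Ftl1; all 4 calls held. The Ftl1 call between KO co-culture with inhibitor and KO co-culture ended without KO co-culture replicate 1 (adjusted p = 0.174) or 2 (0.0781) and without KO co-culture with inhibitor replicate 3 (0.0620) or 4 (0.112). Those of Ftl1 against hepatocytes alone ended without replicate 1 of hepatocytes alone (0.0668 for KO, 0.106 for WT), without KO co-culture replicate 1 (0.0573) and without WT co-culture replicate 3 (0.0927). They ended too without the filter on low values (0.0530 for KO, 0.0765 for WT), and for WT on rescaling without the most abundant genes (0.0761) and with only the libraries compared (0.0746). Quantile normalization made the inhibitor values larger: 0.92 for Fth1 and 0.82 for Ftl1 in KO co-culture, and 1.02 and 0.87 in WT co-culture. It also moved Ftl1 to -0.61 in KO and -0.58 in WT co-culture against hepatocytes alone, and Fth1 to -0.27 in WT co-culture. Under it Fth1 differed from hepatocytes alone by 0.84 in KO and 0.76 in WT co-culture with inhibitor, and Ftl1 lay above them, by 0.21 (adjusted p = 0.0201) in KO and 0.29 (0.00430) in WT co-culture with inhibitor. Without the filter on low values, the Fth1 calls ended for the inhibitor in KO co-culture (0.283), for WT co-culture (0.327) and for both groups with inhibitor against hepatocytes alone (0.386 for KO, 0.387 for WT). The Fth1 call for WT co-culture ended as well with only the libraries compared (0.0624), and the Ftl1 call for the inhibitor in KO co-culture without the filter (0.128).

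The ratio of Ftl1 to Fth1 FPKM, both per length, was 0.356 to 0.414 in KO co-culture with inhibitor, 0.386 to 0.426 in WT co-culture with inhibitor, 0.340 to 0.384 in KO co-culture, 0.362 to 0.443 in WT co-culture and 0.401 to 0.495 in hepatocytes alone. KO co-culture lay below WT co-culture with inhibitor, narrowly, and below hepatocytes alone, with no overlap. All other pairs of groups overlapped, and the ratio is a description with no test. Processed copies of both genes can share reads with them. Of 11 other genes in the table with names starting with Fth, among them the Fthl17 paralogs, 10 were at 0. All together they took at most 0.00922% of the heavy chain fragments. The 3 other genes with names starting with Ftl took 1.40 to 2.18% of the light chain fragments. Copies under other names were not searched for, so these shares do not cover them. Ftl1-ps1, the only one of these genes abundant enough to test, passed in no comparison. A gene of unsettled class on the strand opposite Ftl1, Gm10252, averaged 0.656 FPKM, and whether the counting used strand is not given in the sources used here.

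Of the genes of the iron regulatory proteins, Aco1 differed more between groups than Ireb2. Aco1, which encodes an aconitase that binds RNA once it loses its iron-sulfur cluster (ENSMUSG00000028405, chr4:40143081-40198338, plus strand), was at 34.1, 35.2, 35.0 and 36.6 FPKM in KO co-culture with inhibitor and at 34.5, 31.3 and 34.3 FPKM in WT co-culture with inhibitor. It was at 23.9, 23.6 and 22.7 FPKM in KO co-culture, at 24.4, 23.0 and 20.9 FPKM in WT co-culture, and at 31.3, 30.8 and 29.2 FPKM in hepatocytes alone. The 6 co-culture libraries without inhibitor were the lowest, the 7 with it were the highest, and hepatocytes alone lay between them. The inhibitor raised Aco1 by a log2 fold change of 0.57 ± 0.05 in KO co-culture (limma, adjusted p = 1.21e-07) and 0.53 ± 0.05 in WT co-culture (5.91e-07). KO and WT co-culture lay below hepatocytes alone by -0.37 ± 0.05 (3.42e-05) and -0.41 ± 0.05 (1.23e-05). Leaving out WT co-culture replicate 1 gave Aco1 values of 0.58 for the inhibitor in WT co-culture and -0.45 for WT co-culture against hepatocytes alone. With the inhibitor Aco1 was above hepatocytes alone by 0.21 ± 0.05 in KO co-culture (0.00220). In WT co-culture with inhibitor it was above them by 0.13 ± 0.05 (0.0464), a call that ended under 13 of 23 alternatives, with an adjusted p as high as 0.162 without hepatocytes alone replicate 3. Of those 13, 11 left out 1 library, namely replicates 1, 2 and 3 of KO co-culture with inhibitor, 1 and 3 of WT co-culture with inhibitor, 1, 2 and 3 of KO co-culture, 2 of WT co-culture, and 2 and 3 of hepatocytes alone.

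Ireb2 encodes the iron regulatory protein that is degraded when iron is plentiful. Ireb2 (ENSMUSG00000032293, chr9:54863789-54912530, plus strand) was at 13.5, 13.05, 12.96 and 13.8 FPKM in KO co-culture with inhibitor and at 14.4, 13.9 and 14.2 FPKM in WT co-culture with inhibitor. It was at 14.8, 12.6 and 13.4 FPKM in KO co-culture, at 15.4, 12.7 and 13.2 FPKM in WT co-culture, and at 14.5, 16.3 and 16.4 FPKM in hepatocytes alone. Hepatocytes alone were highest on average, at 15.7 ± 1.05 FPKM, and overlapped both co-cultures without inhibitor through 1 library each. The inhibitor effect was -0.02 ± 0.06 in KO co-culture (limma, adjusted p = 0.760; 95% interval -0.16 to 0.12) and 0.04 ± 0.07 in WT co-culture (0.600; -0.11 to 0.19). Against hepatocytes alone Ireb2 was lower by -0.22 ± 0.06 in KO co-culture with inhibitor (0.00677), -0.20 ± 0.07 in KO co-culture (0.0215) and -0.18 ± 0.07 in WT co-culture (0.0319), and the -0.14 in WT co-culture with inhibitor did not pass (0.0865). It did pass without WT co-culture replicate 1 (0.0399) or hepatocytes alone replicate 1 (0.0337).

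The Ireb2 calls of both co-cultures without inhibitor rested on few libraries and on the processing. For KO co-culture the call ended without KO co-culture replicate 2 (0.102) or 3 (0.0573) and without hepatocytes alone replicate 2 (0.0730) or 3 (0.0794). For WT co-culture it ended without WT co-culture replicate 2 (0.134) or 3 (0.104) and without hepatocytes alone replicate 2 (0.0993) or 3 (0.108), and without WT co-culture replicate 1 the Ireb2 value was -0.26. Rescaling without the most abundant genes ended all 3 Ireb2 calls against hepatocytes alone, with adjusted p of 0.148 in KO co-culture with inhibitor, 0.127 in KO co-culture and 0.218 in WT co-culture. Quantile normalization ended those of KO co-culture (0.0595) and WT co-culture (0.0965). The call of WT co-culture ended too without the filter on low values (0.0647) and with only the libraries compared (0.106).

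Ncoa4, the receptor that delivers ferritin to lysosomes for iron release, moved with Aco1 in direction. Ncoa4 (ENSMUSG00000056234, chr14:32159865-32179855, plus strand) was at 11.001, 10.996, 11.5 and 12.6 FPKM in KO co-culture with inhibitor and at 10.6, 9.41 and 10.6 FPKM in WT co-culture with inhibitor. It was at 7.98, 8.36 and 8.63 FPKM in KO co-culture, at 9.39, 7.20 and 7.57 FPKM in WT co-culture, and at 10.5, 10.1 and 9.79 FPKM in hepatocytes alone. All co-culture libraries without inhibitor lay below all others, WT replicate 1 among them only narrowly, and WT co-culture with inhibitor overlapped hepatocytes alone. The inhibitor raised Ncoa4 by a log2 fold change of 0.43 ± 0.07 in KO co-culture (limma, adjusted p = 1.35e-04) and 0.31 ± 0.08 in WT co-culture (0.00296). KO and WT co-culture were below hepatocytes alone by -0.26 ± 0.08 (0.0118) and -0.31 ± 0.08 (0.00383). KO co-culture with inhibitor differed from hepatocytes alone by 0.17 ± 0.07 (0.0549) and WT co-culture with inhibitor by 0.01 ± 0.08 (0.942). The first of these passed without WT co-culture replicate 1 (0.0120) or 2 (0.0399), with quantile normalization (0.0444), on rescaling (0.26, 0.0160), with only the libraries compared (0.0210) and with voom weights (0.26, 0.00250). The Ncoa4 call for KO co-culture ended on rescaling without the most abundant genes (0.0627). Without WT co-culture replicate 1, Ncoa4 was -0.41 in WT co-culture against hepatocytes alone and 0.42 for the inhibitor in WT co-culture.

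Hepcidin RNA was at the edge of detection in these hepatocytes. Hamp (ENSMUSG00000050440, chr7:30942368-30944032, minus strand) had 13 fragments in all 16 libraries together. It had 1, 1, 0 and 0 fragments in KO co-culture with inhibitor, 0, 1 and 1 in WT co-culture with inhibitor, 0, 3 and 0 in KO co-culture, 0, 3 and 0 in WT co-culture, and 1, 2 and 0 in hepatocytes alone. No library held more than 3 fragments (0.386 FPKM), 8 held none, and a count of 0 allows a level of up to 0.334 to 0.474 FPKM by library, so no difference between groups was detectable at this depth. The neighbouring gene Hamp2 was listed at 0 in every library.

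Over the 8 tested members, all calls of co-culture without inhibitor against hepatocytes alone were lower, whereas those of the inhibitor went both ways. Most of all genes tested passed in these comparisons too, and several of the lower calls ended under the alternatives given above. With the inhibitor in KO co-culture, 4 were higher (Aco1, Ncoa4, Ftl1, Fth1), 3 were lower (Slc40a1, Tfrc, Slc11a2) and Ireb2 did not pass. Of all 11395 genes tested, 69.5% passed there, 34.8% higher and 34.7% lower, and the median log2 fold change was 0.06 over the members and -0.01 over all genes. In WT co-culture with inhibitor against WT co-culture the counts were again 4 higher and 3 lower, each member in the same direction as with KO cells. There 66.6% of all genes passed, 33.5% higher and 33.0% lower, with medians of 0.17 over the members and -0.01 over all genes. These 2 comparisons share no library.

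In KO co-culture against hepatocytes alone, 7 of 8 members were lower, none was higher and Fth1 did not pass. Of all genes, 61.5% passed, 30.3% higher and 31.2% lower, with medians of -0.27 over the members and 0.01 over all genes. In WT co-culture against hepatocytes alone, 7 were lower, none was higher and Slc11a2 did not pass, beside 62.0% of all genes (30.1% higher and 31.9% lower) and medians of -0.29 and 0.01. With a fit to the 2 groups alone, or without the filter on low values, 4 members passed for WT. After rescaling without the most abundant genes, 4 passed for KO.

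In KO co-culture with inhibitor against hepatocytes alone, 2 members were higher (Aco1 and Fth1) and 4 were lower (Slc40a1, Tfrc, Slc11a2 and Ireb2), with a median of -0.15 over the members and -0.02 over all genes. Of all genes, 69.4% passed, 33.3% higher and 36.1% lower. In WT co-culture with inhibitor against hepatocytes alone, 2 members were higher (Aco1 and Fth1) and 3 were lower (Slc40a1, Tfrc and Slc11a2), with medians of -0.07 and -0.02. There 66.8% of all genes passed, 32.1% higher and 34.7% lower, so that 48.1% of the calls were higher, against 58.2% after rescaling without mitochondrial and the 50 most abundant genes. All comparisons against hepatocytes alone use the same 3 libraries, so their values are not independent. Most genes passed in each comparison with hepatocytes alone and in each inhibitor comparison, so how many members passed there says little about the members.

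**Figure D2:**
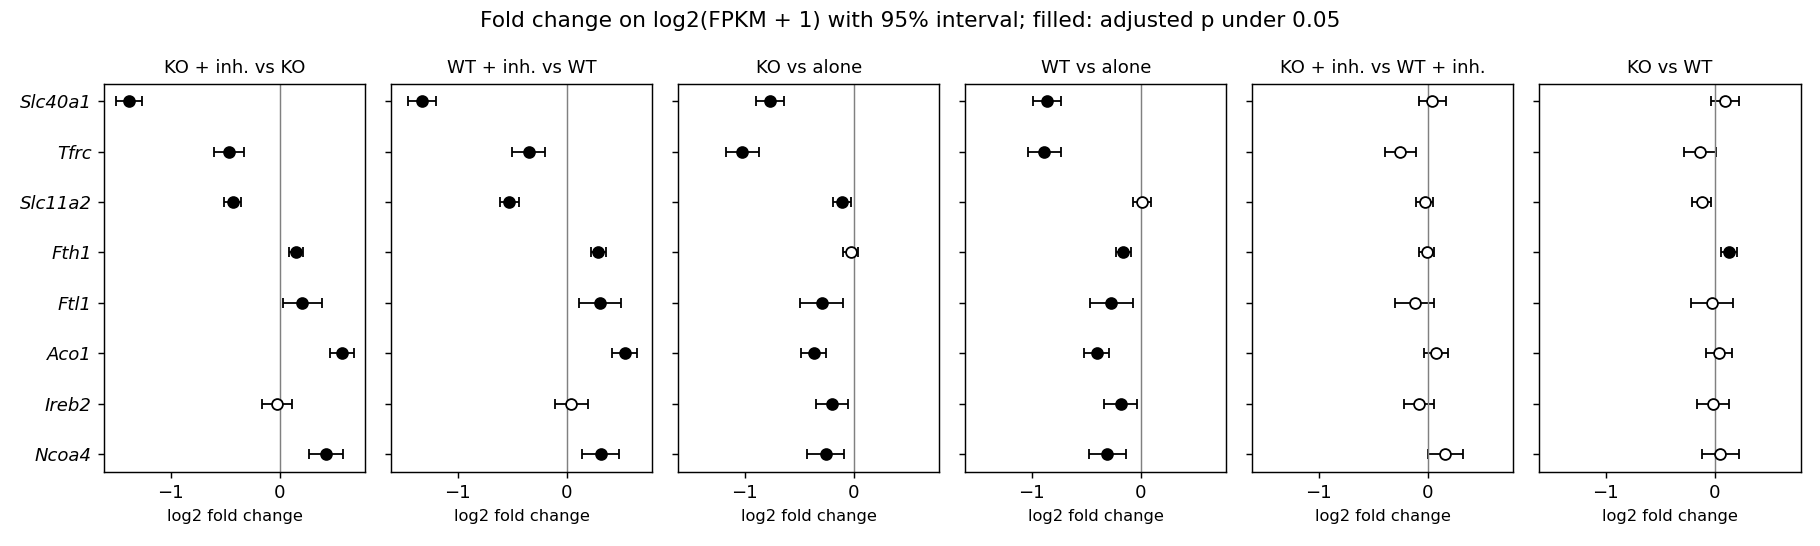
Log2 fold change on the log2(FPKM + 1) scale (horizontal axis) of the 8 tested members in 6 comparisons, with bars for the 95% interval and filled points where the adjusted p was under 0.05. Slc40a1, Tfrc and Slc11a2 lie left of 0 and Fth1, Ftl1, Aco1 and Ncoa4 right of 0 in both inhibitor comparisons, and all 8 intervals lie within 0.5 of 0 in both genotype comparisons.

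Few of these differences passed between co-cultures with KO and with WT cancer cells. In KO against WT co-culture, Fth1 was the only member that passed, at 2787 ± 50.4 FPKM in KO co-culture and 2546 ± 25.1 FPKM in WT co-culture (SD, n = 3 each). Its log2 fold change was 0.13 ± 0.03 (limma, adjusted p = 0.0468) and it was higher in all 3 KO libraries than in any WT library. Of all genes, 2.99% passed, 1.65% higher and 1.34% lower (55.1% of calls higher, against 43.8% on rescaling), and the median was 0.01 both over the members and over all genes. The Fth1 call ended in 20 of 23 alternatives, including 15 of the 16 that each left out 1 library, with values of 0.11 to 0.19. Without WT co-culture replicate 1 it held, at 0.13 (0.0444). Tfrc differed by -0.13 ± 0.07 (0.419; 95% interval -0.29 to 0.02), Slc40a1 by 0.09 ± 0.06 (0.553; -0.04 to 0.22) and Slc11a2 by -0.12 ± 0.04 (0.137).

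With the inhibitor present, no member passed between KO and WT co-culture (limma; 2 had an unadjusted p under 0.05). With recovered fragments and voom weights, 1 did. Of all genes, 2.31% passed, 1.66% higher and 0.649% lower, with medians of -0.02 over the members and -3.46e-04 over all genes. The largest difference was that of Tfrc, at 16.5 ± 1.16 FPKM in KO co-culture with inhibitor (SD, n = 4) and 19.9 ± 1.35 FPKM in WT co-culture with inhibitor (SD, n = 3), a log2 fold change of -0.25 ± 0.07 (adjusted p = 0.0658; 95% interval -0.39 to -0.11). Tfrc passed with recovered fragments and voom weights (-0.27, adjusted p = 0.0305), without KO co-culture with inhibitor replicate 4 (-0.29, 0.0481) and without WT co-culture replicate 1 (-0.25, 0.0434). Slc40a1 differed by 0.04 ± 0.06, with a 95% interval of -0.08 to 0.17.

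The inhibitor effect was also compared between genotypes directly. No member passed (limma; 1 had an unadjusted p under 0.05, and 1 passed with recovered fragments and voom weights), beside 0.816% of all genes, 0.535% with a higher and 0.281% with a lower effect in KO (65.6% of calls higher, against 77.3% on rescaling). The median was -0.06 over the members and -0.01 over all genes. The smallest p was that of Fth1, whose inhibitor effect was lower in KO by -0.14 ± 0.04 (adjusted p = 0.215; 95% interval -0.24 to -0.04), and with voom weights its adjusted p was 0.0466.

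Other genes of iron handling were counted in lists, by direction, in the same fit, with no test of a list. Their counts stand beside the shares of all genes given above: with the inhibitor 34.8% higher and 34.7% lower in KO co-culture and 33.5% higher and 33.0% lower in WT co-culture, and against hepatocytes alone 30.3% higher and 31.2% lower in KO and 30.1% higher and 31.9% lower in WT co-culture. Of 11 tested genes of iron import, export and reduction, 4 rose and 4 fell with the inhibitor in KO co-culture (median 0.01) and 4 rose and 5 fell in WT co-culture (median -0.08). Cp, the ferroxidase ceruloplasmin that works with ferroportin, rose with the inhibitor to 67.6 ± 1.16 FPKM in KO co-culture with inhibitor, against 18.3 ± 1.04 in KO co-culture (log2 fold change 1.83 ± 0.06), and by 1.93 ± 0.06 in WT co-culture. It was below hepatocytes alone by -2.17 ± 0.06 in KO and -2.54 ± 0.06 in WT co-culture, and was the only gene of these lists that passed between KO and WT co-culture, at 0.37. Steap1, a metalloreductase of the same list, had the opposite course: the inhibitor changed it by -0.94 ± 0.05 in KO and -0.95 ± 0.05 in WT co-culture, and co-culture raised it by 0.99 ± 0.05 with KO and 1.01 ± 0.05 with WT cells. Slc39a14, the importer of iron not bound to transferrin, was higher at each step, by 0.85 ± 0.04 in KO and 0.74 ± 0.04 in WT co-culture against hepatocytes alone and by a further 0.47 ± 0.04 and 0.50 ± 0.04 with the inhibitor.

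Further genes of this list moved with the inhibitor. Trf, the plasma iron carrier transferrin, rose by 0.48 ± 0.12 in KO and 0.67 ± 0.13 in WT co-culture, and Steap2, another metalloreductase, rose by 0.67 ± 0.07 and 0.68 ± 0.07. Mcoln1, a cation channel of the lysosome, fell by 1.05 in KO and 0.87 in WT co-culture on the log2 scale, and Slc46a1, a folate transporter that has also been linked to heme uptake, fell by 0.97 and 1.24. Tfr2, the iron-sensing receptor of hepatocytes, changed by -0.25 ± 0.06 in WT co-culture and was at 0.01 ± 0.05 in KO co-culture, and the difference of the effects did not pass. Against hepatocytes alone, 5 of the 11 genes were higher and 4 lower in KO and in WT co-culture, with medians of -0.08 and -0.10, and Steap2 was lower, by -0.32 ± 0.07 and -0.33 ± 0.07. With the inhibitor present, Cp (0.27) and Tfr2 (0.23) were higher and Steap3 (-0.21) was lower in KO than in WT co-culture.

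Hepcidin regulators had more lower than higher calls in co-culture, where 31.2% (KO) and 31.9% (WT) of all genes were lower. Of 14 tested, 2 were higher and 8 lower in KO co-culture against hepatocytes alone (median -0.37, against 0.01 over all genes), and 3 were higher and 8 lower in WT co-culture (median -0.36). Id1, a target of the bone morphogenetic protein signal that drives hepcidin, was at 34.2 ± 3.89 FPKM in KO co-culture with inhibitor, 36.2 ± 2.08 in WT co-culture with inhibitor, 23.9 ± 1.22 in KO co-culture, 25.8 ± 3.91 in WT co-culture and 91.6 ± 7.63 in hepatocytes alone. It differed from hepatocytes alone by -1.89 ± 0.11 in KO and -1.80 ± 0.11 in WT co-culture. Other targets of that signal were lower in KO and WT co-culture too, Atoh8 by -1.59 and -1.50 and the feedback inhibitor Smad7 by -0.90 and -0.95. Neo1, a receptor that binds hemojuvelin, was higher, by 1.04 ± 0.05 and 0.999 ± 0.05, and so was Acvr2a, an activin receptor, by 0.49 ± 0.10 and 0.41 ± 0.10.

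With the inhibitor, 5 of the 14 rose and 3 fell in KO co-culture (median 0.07), and 5 rose and 2 fell in WT co-culture (median 0.03). Id1 rose by 0.49 ± 0.10 in KO and 0.48 ± 0.11 in WT co-culture, Smad7 by 0.73 ± 0.08 and 0.75 ± 0.09, Atoh8 by 0.91 ± 0.11 and 0.47 ± 0.12, and Furin, a protease that processes prohepcidin, by 0.74 ± 0.04 and 0.82 ± 0.04. Neo1 fell by 1.13 in KO and 0.98 in WT co-culture. Hfe, the hemochromatosis gene, passed in none of these comparisons, and Bmp6 averaged at most 0.0245 FPKM in any group. Tmprss6, a protease that restrains hepcidin, was not tested because its mean over all 16 libraries was under 1 FPKM. Tmprss6 was at 2.19 ± 0.179 FPKM in KO co-culture with inhibitor and 1.37 ± 0.127 in WT co-culture with inhibitor. In the other groups it averaged at most 0.0608 FPKM.

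Genes for ferritin turnover and some other mRNAs known to carry such a hairpin form short lists. Of 5 tested genes of IRP2 degradation and ferritin turnover, 3 rose and none fell with the inhibitor in KO and in WT co-culture (medians 0.23 and 0.24). Fbxl5, the ligase subunit that marks the Ireb2 product for degradation, rose by 0.87 ± 0.06 in KO and 0.77 ± 0.07 in WT co-culture and was lower in KO and WT co-culture than in hepatocytes alone, by -0.44 ± 0.07 and -0.32 ± 0.07. Herc2, a ligase that acts on the Ncoa4 product, rose by 0.27 ± 0.04 and 0.41 ± 0.05 with the inhibitor, and was higher in co-culture too, by 0.60 ± 0.05 with KO and 0.47 ± 0.05 with WT cells. In KO and in WT co-culture, 1 of the 5 was higher and 1 lower than in hepatocytes alone, with medians of -0.04 and -0.09. Of 4 tested genes with other known hairpins, all 4 rose with the inhibitor in KO and WT co-culture (medians 0.36 and 0.41). Epas1, a hypoxia-inducible factor, led them at 1.84 ± 0.09 and 1.82 ± 0.09, followed by the kinase gene Cdc42bpa at 0.48 ± 0.04 and 0.46 ± 0.05. In co-culture 1 was higher and 2 lower with KO cells (median -0.10), and none was higher and 2 lower with WT cells (median -0.09), Epas1 by -0.59 ± 0.09 and -0.69 ± 0.09.

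Heme synthesis and heme breakdown were counted apart. Of 8 tested genes of heme synthesis, 5 rose and 1 fell with the inhibitor in KO co-culture and 5 rose and 2 fell in WT co-culture (medians 0.25 and 0.23), among them Fech, which inserts the iron, by 0.39 ± 0.04 and 0.42 ± 0.04. Alas1, the rate-limiting enzyme in liver, rose by 0.11 ± 0.05 in WT co-culture (adjusted p = 0.0417) and was at -0.08 ± 0.04 in KO co-culture (0.0987). Against hepatocytes alone, 3 were higher and 2 lower in KO co-culture and 2 were higher and 3 lower in WT co-culture (medians -0.01 and 0.02), with Cpox higher by 0.62 ± 0.08 and 0.68 ± 0.08 and Fech lower by -0.35 ± 0.04 and -0.41 ± 0.04. Of 10 genes of heme breakdown, transport and scavenging, 4 rose with the inhibitor in KO and 5 in WT co-culture and none fell (medians 0.08 and 0.23), beside 34.8 and 33.5% of all genes that rose. Hp, the hemoglobin scavenger haptoglobin, rose by 4.17 ± 0.12 and 3.70 ± 0.12, and Hpx, the heme scavenger hemopexin, by 1.62 ± 0.05 and 1.29 ± 0.05. In co-culture 3 were higher and 4 lower with KO cells (median -0.04), and 3 were higher and 5 lower with WT cells (median -0.08), Hp by -3.90 ± 0.12 and -4.02 ± 0.12. Hmox1, the heme oxygenase gene, passed between KO co-culture with inhibitor and hepatocytes alone, at 0.23 ± 0.08, and in none of the other comparisons with all libraries. Between KO and WT co-culture with inhibitor Hp (0.58) and Hpx (0.29) were higher, and Hpx was the only gene of these lists whose inhibitor effect differed between genotypes, by 0.33.

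Iron-sulfur cluster genes of the mitochondrion had more lower than higher calls with the inhibitor, where 34.7% (KO) and 33.0% (WT) of all genes were lower. Of 24 tested, 4 rose and 15 fell with the inhibitor in KO co-culture, and 3 rose and 15 fell in WT co-culture (medians -0.29 and -0.28, against -0.01 over all genes). Lyrm4, a subunit of the cysteine desulfurase complex, fell by 1.04 in KO and 0.75 in WT co-culture. Slc25a37, a mitochondrial iron importer, was the one that rose most, by 1.11 ± 0.05 and 1.02 ± 0.05, to 30.5 ± 0.766 FPKM in KO and 32.0 ± 0.661 FPKM in WT co-culture with inhibitor. In co-culture 9 were higher and 3 lower with KO cells (median 0.10), and 10 were higher and 3 lower with WT cells (median 0.18), with Lyrm4 higher by 0.92 ± 0.13 and 0.70 ± 0.13. Of 11 tested cytosolic genes of cluster assembly, 4 rose and 4 fell with the inhibitor in KO co-culture and 3 rose and 3 fell in WT co-culture (medians -0.03 and 0.02), Ciapin1 by -0.60 ± 0.05 and -0.55 ± 0.05. In co-culture 3 were higher and 3 lower with KO cells and 1 was higher and 4 lower with WT cells (medians -0.01 and 0.05).

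Ferritin genes are also known targets of the antioxidant factor NRF2. Of 7 other tested NRF2 targets (Hmox1 among them, as in the heme list), 3 rose and 2 fell with the inhibitor in KO and in WT co-culture (medians 0.05 and 0.0028), Gclc, of glutathione synthesis, by 1.35 ± 0.06 and 1.24 ± 0.06, and the cystine transporter gene Slc7a11 by -0.89 ± 0.06 and -1.09 ± 0.06. In co-culture 1 was higher and 5 lower with KO cells, and 1 was higher and 3 lower with WT cells (medians -0.19 and -0.16).

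With WT co-culture replicate 1 left out, no called gene of these lists changed direction in WT co-culture against hepatocytes alone or with the inhibitor in WT co-culture, but some calls came or went. Against hepatocytes alone, higher and lower calls were then 5 and 4 for import, export and reduction, 3 and 9 for hepcidin regulators, 1 and 3 for ferritin turnover, 2 and 2 for heme synthesis and 5 and 4 for heme breakdown. They were 12 and 3 for the mitochondrial list, 2 and 4 for the cytosolic list, 0 and 2 for the other hairpin mRNAs and 2 and 4 for NRF2 targets. With the inhibitor in WT co-culture they were 4 and 6, 6 and 2, 4 and 0, 5 and 2, 5 and 1, 4 and 14, 3 and 4, 4 and 0, and 3 and 3, in the same order of lists. Hmox1 then passed in both comparisons, at 0.26 against hepatocytes alone and -0.19 with the inhibitor, Trf passed against hepatocytes alone at -0.45, and Acvr2a passed with the inhibitor at 0.27. Between KO and WT co-culture Bmpr2, a receptor for bone morphogenetic proteins, passed then beside Cp.

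**Figure D3:**
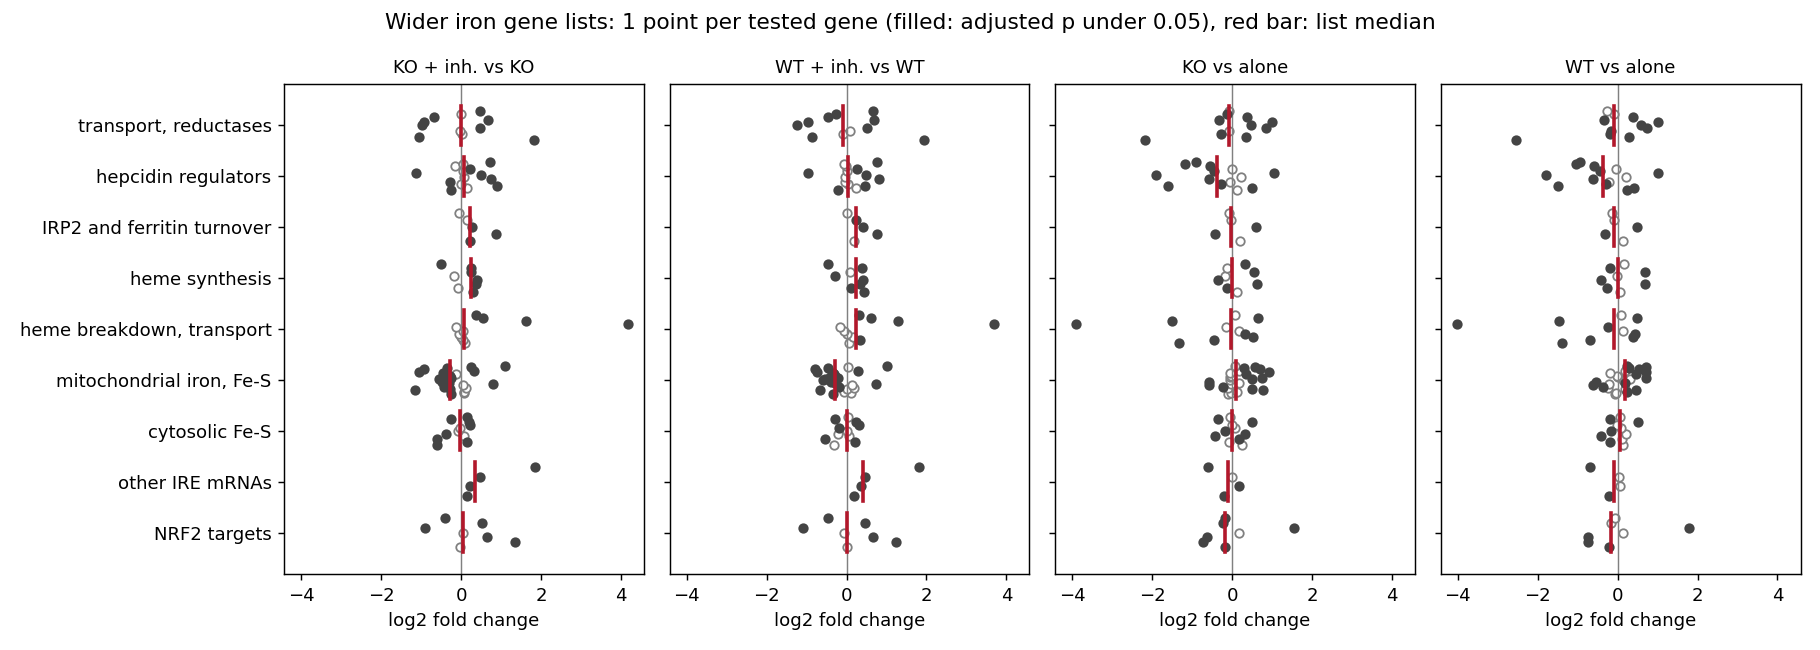
Log2 fold change on the log2(FPKM + 1) scale (horizontal axes) of each tested gene in 9 iron-related lists (rows) and 4 comparisons (panels), with filled points where the adjusted p was under 0.05 and a red bar at the list median. The mitochondrial iron and iron-sulfur list has its median at -0.29 and -0.28 in the inhibitor panels, and the hepcidin regulators at -0.37 and -0.36 in the co-culture panels; Hp is the outermost point, at 4.17 and 3.70 in the inhibitor panels.

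Over the 5 groups, Slc40a1 spanned 2.19 and Tfrc 1.49 on the log2 scale between the highest and lowest group mean, and every other tested member spanned under 1, from 0.61 for Aco1 down to 0.22 for Ireb2. For these 2 genes the protein-coding genes with the nearest pattern were sought, by the root mean square difference of the 4 group differences from hepatocytes alone (4 differences of 5 group means). For Slc40a1 these were Marcksl1 (0.0766 log2 units), Cacna2d1 (0.108) and Cttnbp2 (0.111). For Tfrc they were Trpa1 (0.0645), Ddah2 (0.0887) and Trappc1 (0.0916). Marcksl1, for example, lay below hepatocytes alone by -2.23 in KO and -2.12 in WT co-culture with inhibitor and by -0.88 in KO and -0.85 in WT co-culture.

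**Figure D4:**
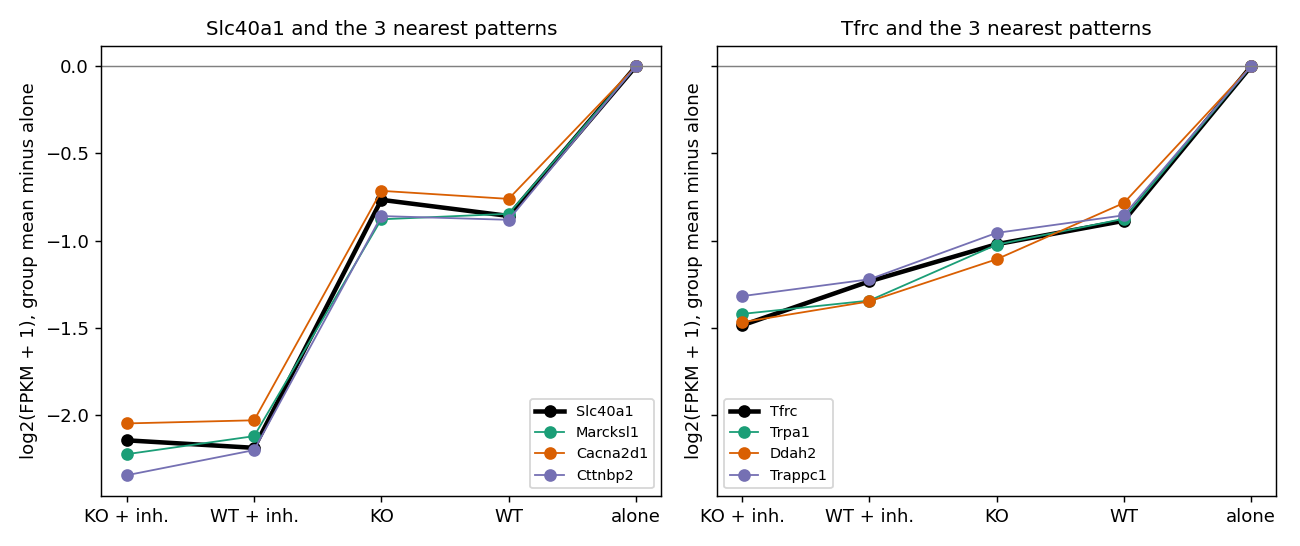
Group mean of log2(FPKM + 1) minus that of hepatocytes alone (vertical axis) in the 5 groups (horizontal axis) for Slc40a1 and for Tfrc (black) and the 3 genes nearest to each (coloured). The Slc40a1 panel has a step between the groups with inhibitor (-2.15 and -2.19) and those without it (-0.77 and -0.86), while the Tfrc panel descends in smaller steps to -1.49.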

How the data were processed

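The RNeasy mini kit was used to extract RNA, with library preparation as in Novogene's protocols, per the labels' protocols. HISAT2, GRCm38 and mm10 are named per the submitters' processing notes. Its version, the counting tool, the annotation and whether strand was used are not given in the sources. The deposited values are FPKM, given by the authors for each of 16 libraries without pooling. FPKM times gene length was a whole multiple of 1 fragment, within 0.1, for 99.98 to 100% of nonzero values, which gave 15.002 to 21.3 M fragments per library. Their sum was 0.970 to 1.03 times the divisor of the authors. A fragment in a gene of 1 kb was worth 0.0457 to 0.0648 FPKM, and floors of 3 fragments cover counting error only.

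From these values log2(FPKM + 1) was computed, which understates fold changes of low genes. Of all genes, 11395 averaged 1 FPKM or more and were fitted with limma 3.58.1 in R 4.3.3, with all 16 libraries, 1 mean per group and moderated variances with an intensity trend. The 9 comparisons were two-sided; Benjamini-Hochberg adjustment covered every gene tested, with 0.05 as threshold, and the fit was tested on simulated data. Every p-value is from this fit unless a setting is named. Alternatives were a pseudocount of 0.1, no filter, quantile normalization, and rescaling without mitochondrial genes and the 50 most abundant genes. The others were only the libraries compared, a replicate block, voom on recovered fragments, and leaving out each library. The 50 genes were ranked over all genes by mean FPKM, and Fth1 and Ftl1 are among them. No 2 libraries were identical. Gene coordinates are those of the deposited table on GRCm38, and for 8 of the 9 members GENCODE M21 has the same.

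The members and all lists were chosen with earlier results of these data known. Named were all members, Trf, Tfr2, Slc39a14, Hmox1, Hfe, Bmp6, Id1, Smad7, Tmprss6, Fbxl5 and Alas1, and, from each list, genes among the largest changes past the threshold, up to 2 each way; Hamp2, Gm10252 and Ftl1-ps1 are named as neighbours or copies of members. Nearest patterns, 3 genes each, were sought for members whose group means spanned 1 or more. The result of 1 named gene is not reported here.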

Additional observations from a re-analysis of the deposited data

How the results depend on the processing

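Of 1656 member values under 23 alternatives, 1566 stayed on their side of the threshold, 25 of them uncalled values whose sign turned, 75 no longer passed, 14 newly passed and 1 reversed. The reversed value was that of Ftl1 in KO co-culture with inhibitor against hepatocytes alone, 0.21 under quantile normalization. The calls of Slc40a1, Tfrc, Slc11a2, Aco1 and Ncoa4 for the inhibitor within each genotype, and those of Slc40a1, Tfrc and Aco1 for co-culture without inhibitor against hepatocytes alone, held under all 23 alternatives. The causes of the changes were not tested.

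Counts of members that passed moved by over 1.5 times as follows. Without the filter on low values (27086 genes tested), 4 passed for WT co-culture and 3 for WT co-culture with inhibitor against hepatocytes alone. With only the libraries compared, 4 passed for WT co-culture against hepatocytes alone, and after rescaling 4 passed for KO co-culture. Between KO and WT co-culture, 0 passed without the filter, with quantile normalization, on rescaling, with only the libraries compared and with the replicate block, and 0 to 1 when a library was left out. With inhibitor, 1 passed with the replicate block and 1 with voom weights, and 0 to 1 when a library was left out. For the difference of inhibitor effects, 1 passed with voom weights.

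Over all genes, the count for KO against WT co-culture, 341, was 17 with only the libraries compared and 157 to 398 when a library was left out. With inhibitor it was 263, and 123 to 371 when a library was left out. The count for the difference of inhibitor effects, 93, was 55 without the filter, 41 with only the libraries compared, 34 with the replicate block and 31 to 120 when a library was left out. Voom weights on recovered fragments called 7252 genes in WT and 7215 in KO co-culture against hepatocytes alone, where the FPKM fit called 7070 and 7011. No scaling moved the median of all genes by over 0.1.

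Over 30 pairs of same-numbered replicates of different groups, the correlation of deviations from the group means ranged from -0.300 to 0.270 (median 0.0104). Pairs of replicates 2 between co-culture groups were all positive, at 0.0906 to 0.270, while those with hepatocytes alone ranged from -0.181 to 0.0644. Pairs of replicates 1 and of replicates 3 had both signs. Whether replicates 2 of the co-cultures were handled together was not tested. With the replicate block, Fth1 between KO and WT co-culture had an adjusted p of 0.0896, Ftl1 for the inhibitor in KO co-culture 0.138, and Tfrc between KO and WT co-culture with inhibitor 0.0371. Replicate numbers 4 occur in 1 group only. Depth limited Hamp, and precision elsewhere rests on 3 or 4 libraries a group.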
